A study of Drosophila melanogaster with 58 samples.

Results

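The wing of Drosophila melanogaster makes cuticle more than once during metamorphosis, and wings at the stage of adult cuticle formation were compared here with wings at the stage of pupal cuticle formation. The comparison rests on 4 RNA-seq libraries, 2 from wings at 44 h after puparium formation (APF) and 2 from wings at 6 h APF, out of 58 samples in the series. All 4 came from female wildtype flies, with no transgene, allele or treatment named in the labels, and whole dissected wings were used, so the libraries hold every cell type of the wing. They were chosen by genotype, assay and stage alone. All 17559 genes of the count files were considered, and the 12 wild-type RNA libraries of the course (the L3 larva and 6, 18, 24, 36 and 44 h APF) were fitted together. Of these genes, 8669 had enough counts to be tested.

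As background, insect cuticle is a layered apical matrix of chitin fibres and proteins. The largest protein family in it carries the Rebers and Riddiford (RR) consensus, which binds chitin, and a smaller family, the Tweedle proteins, was named for a fly mutant of body shape. Chitin is made at the apical membrane by a chitin synthase and is trimmed and modified by deacetylases and chitinases. Zona pellucida (ZP) proteins tie the apical cell surface to the cuticle, Osiris proteins are insect membrane proteins expressed where cuticle is laid down, and catecholamine enzymes and Yellow proteins colour and harden the finished layer. Pulses of the steroid hormone ecdysone time these steps through nuclear receptors and early response genes.

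The 44 h libraries held 6421465 and 7437715 reads on genes, and the 6 h libraries held 5543531 and 3783898. Levels are counts scaled by TMM to a common library size (CPM), and 3 counts in a library, taken as the smallest level it can show, were worth 0.605 CPM at 44 h and 0.776 CPM at 6 h on average. The labels do not say whether the replicates came from separate animals or cultures, so p-values measure the spread between these libraries, which may be technical. Of 7 markers of the wing epithelium, 5 were not called, among them vestigial (vg), scalloped (sd) and nubbin (nub), and the list summed to 732.6 and 756.9 CPM at 44 h and to 841.3 and 885.5 CPM at 6 h. The marker bs was called higher at 44 h (log2 fold change 1.56) and rn higher at 6 h (-1.31). The 7 salivary gland glue genes summed to at most 1.12 CPM in any of the 4. Muscle markers summed to 1286 and 3053 CPM at 44 h, against 196.6 and 226.8 CPM at 6 h. Of the 10, 8 were called higher at 44 h (80.0%, beside 17.0% of all genes tested). Fat body markers summed to 263.7 and 164.5 CPM at 44 h, against 157.9 and 750.9 CPM at 6 h. Hemocyte markers summed to 83.9 and 75.3 CPM at 44 h, against 105.1 and 113.4 CPM at 6 h, and their member lz had 1 count over the 4 libraries. Markers of neurons summed to 444.5 and 380.5 CPM at 44 h and to 162.3 and 354.6 CPM at 6 h. Of the 6 tested, 5 were called higher at 44 h (83.3%, beside 17.0% of all genes tested), with a median log2 fold change of 2.18. The tracheal gene trh had 28.5 and 28.6 CPM at 44 h and 68.3 and 29.0 CPM at 6 h, and the male-specific RNAs roX1 and roX2 summed to 8.26 and 5.58 CPM at 44 h and to 55.8 and 26.5 CPM at 6 h. The part of these cell types in the results below was not tested, and in bulk wings a smaller number of expressing cells cannot be told apart from less RNA per cell.

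The replicates were much farther apart at 6 h than at 44 h. The median absolute log2 ratio between replicates (on CPM + 1) over all tested genes was 0.18 at 44 h and 0.39 at 6 h, and the replicates lay more than 2-fold apart for 2.31% (44 h) and 11.4% (6 h) of them. The biological coefficient of variation between the replicates of a stage was 13.45% at 44 h and 34.8% at 6 h, which was the largest of the 6 stages, and replicate log2 levels correlated at r = 0.988 at 44 h and r = 0.955 at 6 h across genes, which are not independent of each other. The fit shares its spread over all stages, with a coefficient of 20.25% for the 12 libraries, so its p-values take in only part of the spread at 6 h. The spread at 6 h reached the cuticle genes and went beyond them. Of the tested cell cycle genes in the study's list, 221 of 285 were higher in 6 h replicate 1 than in replicate 2, and 5 of 79 ribosomal protein genes were. RR genes summed to 30330 and 31270 CPM in the 44 h libraries, against 42990 CPM in 6 h replicate 1 and 5268 CPM in 6 h replicate 2. Tweedle genes summed to 564.0 and 499.3 CPM at 44 h, against 38440 and 9511 CPM at 6 h. Osiris genes went the other way between the 6 h libraries, with 29440 CPM in replicate 1 and 66900 CPM in replicate 2. The cause of this gap was not tested, and results that rest on 1 of the 6 h libraries are given with and without it. Of 134 called genes chosen by the naming rule, the fold change moved by over 1.5-fold in 58 without 6 h replicate 1 and in 52 without 6 h replicate 2.

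**Figure D1:**
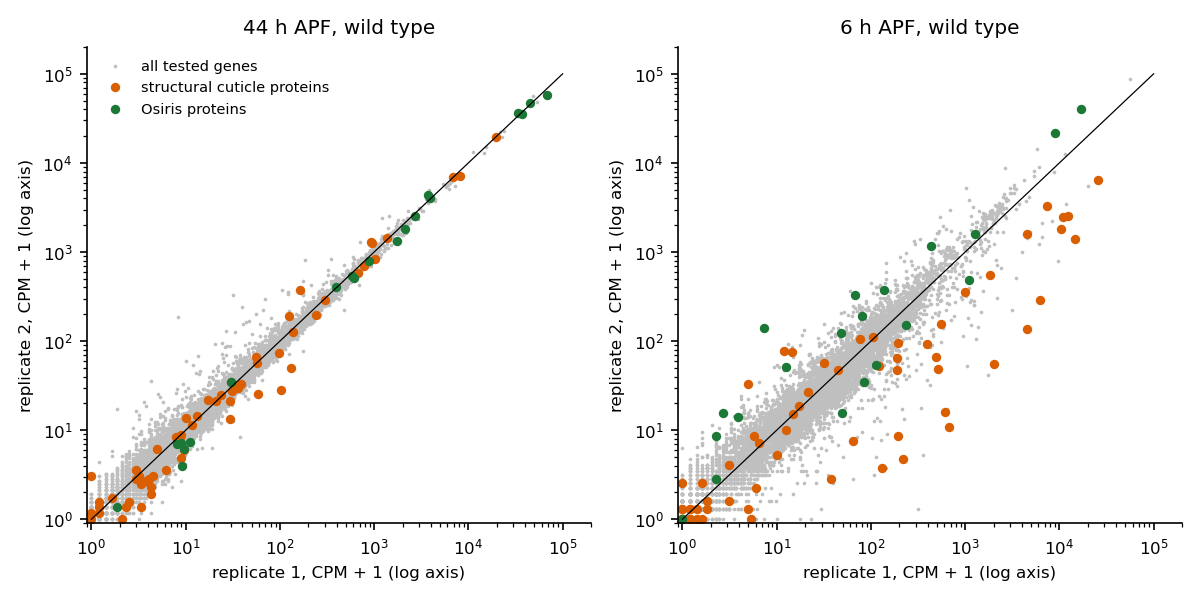
Levels in replicate 1 (x axis) and replicate 2 (y axis) at 44 h (left) and at 6 h (right), in CPM + 1 on log axes, for all 8669 genes tested, with structural cuticle proteins and Osiris proteins in colour and the line of equal levels in black. The 44 h points lie close to the line, while at 6 h most structural cuticle genes lie below it and the most abundant Osiris genes above it.

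Between 44 h and 6 h, 2745 genes were called changed, or 31.7% of the genes tested (edgeR quasi-likelihood test, Benjamini-Hochberg adjusted p below 0.05, with log2 of 44 h over 6 h past 1 or -1). Of these, 1471 (17.0% of those tested) were higher at 44 h and 1274 (14.7%) were higher at 6 h, and 2728 of the calls had no overlap between the libraries of the stages. The same libraries gave the calls, so the lack of overlap is no separate support for them. The share of all tested genes with no overlap was not taken. The direction split rests on the scaling, since with library totals only the calls were 1196 higher at 44 h and 1726 higher at 6 h, and the median log2 fold change of all genes was -0.27 in place of -0.01. In the course of the wing, 44 h was the stage of the highest mean for 950 genes of the 44 h set and 36 h for 355. Among genes higher at 6 h, 600 had their highest mean at 6 h and 428 at L3, so many of these were already high before the pupal stage. The study's control flies carry hs-FLP, a GFP transgene under GAL4 control and a temperature-sensitive GAL80 transgene. They were heat shocked as larvae and kept at other temperatures. In 2 further libraries, of 44 h wings from these flies, both levels were above both 6 h libraries for 1243 of the 1471 genes. For 1055 of the 1274, both levels were below both 6 h libraries. The 6 h libraries here are those that gave the calls, so the check is only partly independent. The share over all tested genes was not taken. Control and wild-type wings of 44 h also differed away from the cuticle genes. The mitochondrial rRNA mt:lrRNA had 48410 and 56810 CPM in the wild-type wings and 90.9 and 63.4 CPM in the control wings. Genotype, handling and library preparation cannot be told apart between these wings, and their part in any such difference was not tested.

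The structural proteins of the cuticle divided into a 44 h set and a 6 h set. In the RR family, 46 of 100 genes were tested, and 17 were higher at 44 h (37.0%, beside 17.0% of all genes) and 16 higher at 6 h (34.8%, beside 14.7%). Their median log2 fold change was 0.44 over the tested members and -0.01 over all genes tested. The most abundant RR gene at 44 h by counts was Cpr76Bc (chromosome 3L, 19520945 to 19527272, dm6). It had 19440 and 19740 CPM at 44 h, against 3.97 and 31.7 CPM at 6 h, a log2 fold change of 10.14 ± 0.85 (SE, adjusted p = 1.91e-06). It was also below 180 CPM in every library from L3 to 36 h, and it had 23940 and 24970 CPM in the control wings of 44 h. Cpr50Ca (2R, 13769915 to 13787802) had 937.7 and 1253 CPM at 44 h, against 4.81 and 7.70 CPM at 6 h (log2 fold change 7.48, adjusted p = 8.48e-08). Resilin, the elastic rubber-like protein of hinges and tendons (2R, 16779905 to 16783171), had 573 and 1034 counts at 44 h and 0 and 1 counts at 6 h, a ratio of 1293 with a 95% exact Clopper-Pearson interval of 231.7 to 51100 that covers counting error only. It was lower in the control wings of 44 h, at 33.1 and 1.44 CPM. Cpr92A had 92 and 110 counts at 44 h and no count at 6 h, so it was at least 26.1-fold higher at 44 h (3 counts per library as the floor). In the control wings of 44 h, Cpr92A had 19.1 and 0.29 CPM, so its level differed between those libraries. Cpr49Ah, named after its values were seen, was the second RR gene at 44 h by counts, with 6897 and 6985 CPM at 44 h, against 43.7 and 45.9 CPM at 6 h. Acp65Aa, described as a cuticle protein gene of the adult, was higher at 44 h on very few counts (2.17 and 2.04 CPM at 44 h, 0.21 and 0 CPM at 6 h).

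The RR genes higher at 6 h reached the same order of abundance. Lcp65Ad (3L, 6143395 to 6144101) had 128.8 and 49.3 CPM at 44 h, against 14610 and 1402 CPM at 6 h (log2 fold change -6.49, adjusted p = 1.30e-04), and its log2 fold change was -3.98 without 6 h replicate 1. Cpr51A (2R, 14512559 to 14515211) had 96.2 and 72.5 CPM at 44 h, against 12340 and 2533 CPM at 6 h (log2 fold change -6.46, adjusted p = 8.69e-06), and -4.91 without 6 h replicate 1. Both 6 h libraries were far above both 44 h libraries for these genes, while differing from each other by several fold. Cpr35B was among those whose 6 h libraries lay close together, with 1.52 and 0.56 CPM at 44 h, against 103.4 and 111.5 CPM at 6 h (log2 fold change -6.70). At the other end, Cpr47Ec rested on a single library. It had 29.3 and 34.0 CPM at 44 h, against 608.2 and 15.1 CPM at 6 h, and its log2 fold change of -3.30 (adjusted p = 0.0186) turned to 1.07 without 6 h replicate 1. Lcp65Ag2, which has near-identical neighbours that can take or lose its reads, had 7.82 and 3.90 CPM at 44 h, against 667.1 and 9.86 CPM at 6 h, and lost its call without that library (log2 fold change -0.76).

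Of the 54 RR genes not tested, 18 had no count in any of the 4 libraries. A further 13 had at least 20 counts in 6 h replicate 1, where they lay between 5.01 and 93.0 CPM, yet were at 2.16 CPM or less in 6 h replicate 2 and at 1.67 CPM or less at 44 h. The others stayed at or under 3.76 CPM in all 4. The filter on low counts asks for a level in at least 2 libraries, and the 13 genes were held back by it. With every gene that had 1 count tested, 32 RR genes were called higher at 6 h in place of 16, and without 6 h replicate 2, where replicate 1 stands alone for its stage, 33 were.

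The few Tweedle genes tested were mainly a 6 h set. Of 27 genes, 5 were tested and 22 were not. TwdlC, Twdlbeta, TwdlT and TwdlE were higher at 6 h (80.0% of those tested, beside 14.7% of all genes). TwdlT (3R, 27049220 to 27051004) was among the 5 most counted genes of the 6 h wing, with 242.2 and 193.5 CPM at 44 h, against 25450 and 6443 CPM at 6 h (log2 fold change -6.19, adjusted p = 1.05e-05), and -4.89 without 6 h replicate 1. TwdlC had 8.69 and 5.02 CPM at 44 h, against 1821 and 551.2 CPM at 6 h, and TwdlE had 301.8 and 291.8 CPM at 44 h, against 10980 and 2466 CPM at 6 h, although 71.9% of TwdlE exon bases lie opposite another gene. All 4 stayed called without either 6 h library, and without replicate 1 the log2 fold changes were -6.34 for TwdlC and -3.06 for TwdlE, in place of -7.44 and -4.50. TwdlV was the exception, with 7.60 and 7.44 CPM at 44 h, against 2.09 and 3.08 CPM at 6 h (adjusted p = 0.0185), a call that was lost without 6 h replicate 1 and without either 44 h library. The median log2 fold change of the tested Tweedle genes was -6.19.

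Among the other cuticle matrix proteins, 6 of 11 tested genes were higher at 6 h (54.5%, beside 14.7% of all genes) and 1 at 44 h. Obst-A, a chitin-binding protein that protects the newly made matrix in larvae, had 777.1 and 692.4 CPM at 44 h, against 7468 and 3252 CPM at 6 h (log2 fold change -2.87, adjusted p = 4.52e-05), and -2.15 without 6 h replicate 1. Obst-B was the gene higher at 44 h, with 1376 and 1432 CPM at 44 h and 1002 and 358.3 CPM at 6 h, and its adjusted p of 0.0366 held only when 6 h replicate 1 was the library left out (log2 fold change 0.52 without 6 h replicate 2). Gasp, another chitin-binding protein, was abundant at both stages, with 8164 and 7131 CPM at 44 h and 10350 and 1820 CPM at 6 h, and was not called. Edg91 had 3.26 and 0.93 CPM at 44 h, against 217.3 and 3.70 CPM at 6 h, and lost its call without 6 h replicate 1 (log2 fold change -0.85).

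Over the RR, Tweedle and other matrix proteins together, 19 genes were higher at 44 h and 26 higher at 6 h. Of the 26, 21 were higher in 6 h replicate 1 than in replicate 2, 20 by more than 2-fold and 10 by more than 10-fold, and the ratio of replicate 1 to replicate 2 ran from 0.728 to 67.7. Of the 19, 18 differed by less than 2-fold between the 44 h libraries. Without 6 h replicate 1, 22 of the 26 kept their call (Edg91, Lcp65Ag2, Cpr47Ec and Cpr78Cc did not) and their median log2 fold change was -2.70 in place of -5.67. Without 6 h replicate 2 all 26 kept it, with a median of -6.57. The genes higher at 44 h moved little under the same settings, with 18 of 19 kept either way and medians of 5.63 and 5.65, against 5.56 in the full fit. The size of the difference of the 6 h set thus rested on 6 h replicate 1 more than the calls did.

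**Figure D2:**
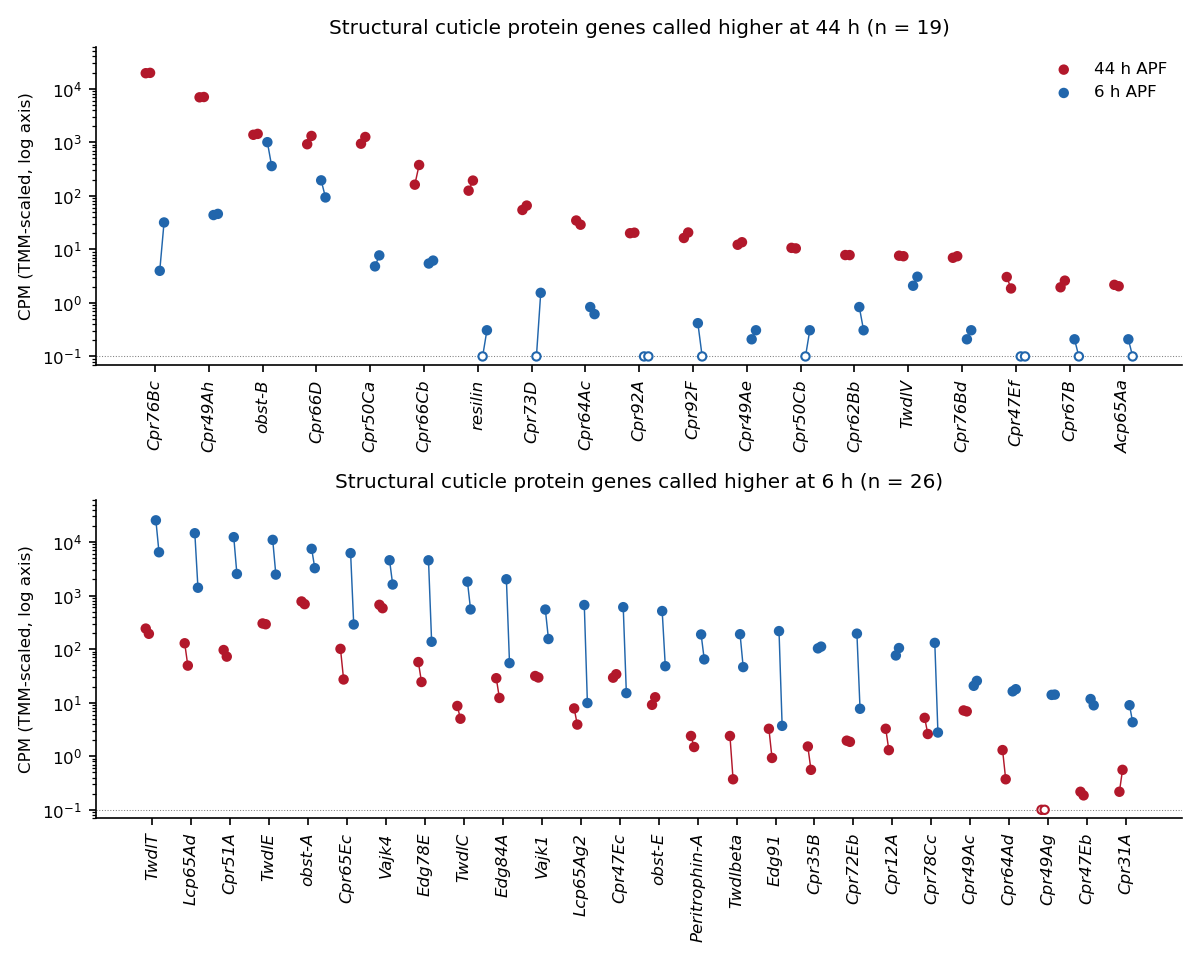
Structural cuticle protein genes called higher at 44 h (top, 19 genes) and higher at 6 h (bottom, 26 genes), each with its CPM in both libraries of 44 h (red) and of 6 h (blue, right of red) on a log axis, replicate 1 left of replicate 2. Values under 0.1 CPM, which are counts of 0, are drawn open on the dotted line. The blue pairs of the lower panel are often spread over more than 10-fold, while the red pairs of both panels mostly lie within 2-fold.

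The course of the wing set these genes in time. Of the 26 genes higher at 6 h, 23 had their highest mean at 6 h, 2 at 18 h and 1 at L3. Of all 1274 genes called higher at 6 h, 600 had it at 6 h. For 19 of the 26, both 6 h libraries were above all 10 libraries of the other stages. The call itself sets 6 h above 44 h, so part of this was fixed in advance. Its share over all called genes was not taken. In 16 of the 26, both 44 h libraries were above all 4 libraries of 24 h and 36 h. The share of all tested genes that did so was not taken, so this count cannot be read as a trait of these genes. Some of these levels were low, as for Peritrophin-A, with 2.39 and 1.49 CPM at 44 h. TwdlT lay between 4.24 and 25.4 CPM from 24 h to 36 h, below its 242.2 and 193.5 CPM at 44 h. Edg78E lay between 0.80 and 2.83 CPM from 24 h to 36 h, below its 57.4 and 24.4 CPM at 44 h. Of the 19 genes higher at 44 h, 12 had their highest mean at 44 h and 7 at 36 h. Of all 1471 genes called higher at 44 h, 950 had it at 44 h and 355 at 36 h. For 10 of the 19, both 44 h libraries were above all 10 libraries of the other stages, which the call fixed in part in the same way. In the control wings of 44 h, TwdlT had 325.3 and 264.5 CPM. Edg78E had 0.28 and 1.44 CPM there and Lcp65Ad 0.28 and 0.14 CPM, so the higher 44 h levels of Edg78E and Lcp65Ad were not seen there. These are descriptions with no test.

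**Figure D3:**
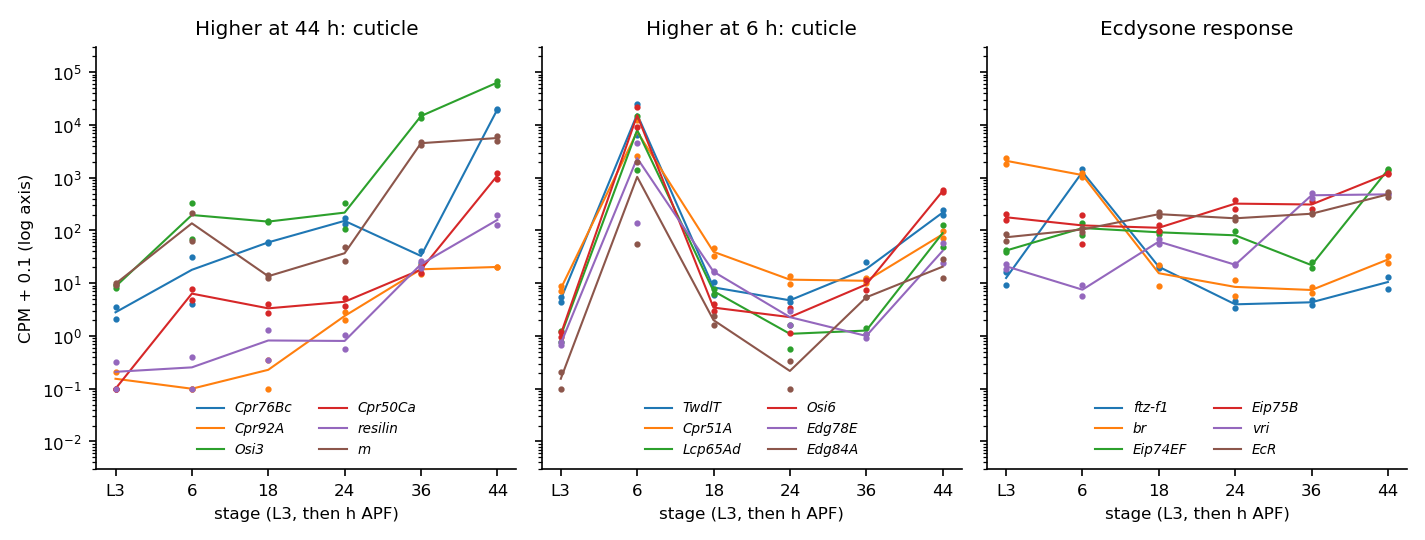
CPM + 0.1 on a log axis over the 6 stages for cuticle genes higher at 44 h (left), cuticle genes higher at 6 h (middle) and ecdysone response genes (right), with points for single libraries and lines through stage means. The genes of the middle panel have their highest values at 6 h, and ftz-f1 peaks at 6 h.

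Edg78E and Edg84A are RR genes that were first described as ecdysone-dependent genes of the pupal cuticle, and the nuclear receptor gene ftz-f1, which is expressed between hormone pulses and is known to act at the Edg84A gene, was itself much lower at 44 h. The receptor gene ftz-f1 had 13.2 and 7.62 CPM at 44 h, against 1467 and 1105 CPM at 6 h (log2 fold change -6.95 ± 0.37, SE, adjusted p = 8.15e-08), and 29.4% of its exon bases are shared with another gene on the same strand. Edg78E had 57.4 and 24.4 CPM at 44 h, against 4562 and 137.4 CPM at 6 h. Edg84A had 28.7 and 12.3 CPM at 44 h, against 2019 and 54.8 CPM at 6 h. Both were called (adjusted p = 0.00127 for Edg78E and 0.00169 for Edg84A), and without 6 h replicate 1 the log2 fold changes were -1.76 for Edg78E and -1.43 for Edg84A, in place of -5.85 and -5.67. The bases just before the annotated start of these genes, and of 3 abundant cuticle and Osiris genes, were read from the RefSeq dm6 sequence to show what their promoters hold. Capitals mark the letters of an FTZ-F1 motif (CAAGGNC on either strand) or of a TATA box (TATAAA on the gene's strand), and each run holds the 120 bases before the start.
Edg78E, higher at 6 h (chr3L:21297804-21297923, minus strand): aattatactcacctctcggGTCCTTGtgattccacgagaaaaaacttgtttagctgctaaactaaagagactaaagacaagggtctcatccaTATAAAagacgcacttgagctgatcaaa
Edg84A, higher at 6 h (chr3R:6684325-6684444, plus strand): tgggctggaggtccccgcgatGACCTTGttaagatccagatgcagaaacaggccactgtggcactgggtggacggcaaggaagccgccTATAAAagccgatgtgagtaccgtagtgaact
Lcp65Ad, higher at 6 h (chr3L:6143275-6143394, plus strand): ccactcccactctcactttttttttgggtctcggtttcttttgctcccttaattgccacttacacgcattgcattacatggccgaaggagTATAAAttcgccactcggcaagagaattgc
Cpr76Bc, higher at 44 h (chr3L:19520825-19520944, plus strand): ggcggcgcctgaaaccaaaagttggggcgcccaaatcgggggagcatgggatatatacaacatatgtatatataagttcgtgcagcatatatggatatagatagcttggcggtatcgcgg
Osi3, higher at 44 h (chr3R:6215712-6215831, plus strand): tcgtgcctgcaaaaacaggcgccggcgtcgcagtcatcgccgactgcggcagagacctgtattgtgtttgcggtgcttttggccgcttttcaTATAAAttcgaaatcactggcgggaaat

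The FTZ-F1 letters begin 101 bases before the start in Edg78E and 99 bases before it in Edg84A, and the TATA box begins 28 bases before it in Edg78E and 32 bases before it in Edg84A, so both genes carry both motifs at nearly the same places. Over the 250 bases before the start, the FTZ-F1 letters were present in 4 of the 26 structural cuticle genes higher at 6 h (15.4%) and in 0 of the 19 higher at 44 h, beside 4.3% of the 8460 tested genes with a placed start. Among Osiris genes they were present in 1 of 11 higher at 44 h (9.1%) and in 0 of 7 higher at 6 h, the 1 being Osi3, where they begin 219 bases before the start and so lie outside the printed run. A TATA box beginning 15 to 45 bases before the start was present in 19 of the 26 (73.1%) and in 8 of the 19 (42.1%), beside 5.4% of all. Over all called genes the share with the FTZ-F1 letters was 4.1% for those higher at 44 h and 4.5% for those higher at 6 h, close to the share of all genes. The Blimp-1 letters GTGAAAG, searched on both strands, were present in 3.0% of genes higher at 44 h and 1.4% of genes higher at 6 h, beside 2.3% of all, and the Grainyhead letters AACNGGTT in 5.6% and 5.2%, beside 4.7%. These are matches of letters and not sites, and the starts are those of the annotation, so genes with other starts are not covered.

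Among the Osiris genes, neighbours on the chromosome differed in direction. Of 22 genes, 20 were tested, and 11 were higher at 44 h (55.0%, beside 17.0% of all genes) and 7 higher at 6 h (35.0%, beside 14.7%). Their median log2 fold change was 2.31. Except for Osi22 and Osi23, they lie in a single cluster of 20 genes on 3R, from Osi1 at 6173549 to Osi20 at 6341424. At 44 h, Osi3, Osi7 and Osi9 were among the 5 most counted genes of the wing, and the family took 14.5% and 13.98% of all counts, against 2.54% and 5.74% at 6 h. Osi3 had 68850 and 58320 CPM at 44 h, against 67.5 and 324.8 CPM at 6 h (log2 fold change 8.34, adjusted p = 7.76e-06), and its log2 fold change was 7.61 without 6 h replicate 1 and 9.91 without 6 h replicate 2. Osi12 had 33860 and 36100 CPM at 44 h, against 6.27 and 139.3 CPM at 6 h, and Osi11 had 879.9 and 782.5 CPM at 44 h, against 1.25 and 1.85 CPM at 6 h. Other members of the same cluster were high at 6 h. Osi6 had 580.9 and 532.5 CPM at 44 h, against 8956 and 21590 CPM at 6 h (log2 fold change -4.78, adjusted p = 6.99e-06), and -3.98 without 6 h replicate 2. Osi14 had 8.69 and 5.20 CPM at 44 h, against 1280 and 1599 CPM at 6 h (log2 fold change -7.70, adjusted p = 2.54e-08). Osi6 and Osi7 are neighbours, and Osi7 was among the most counted genes of both stages, with 45210 and 47080 CPM at 44 h and 16840 and 40560 CPM at 6 h (log2 fold change 0.69, adjusted p = 0.493). In gene order, Osi13 was higher at 44 h while Osi14, Osi15, Osi18, Osi19 and Osi20 were higher at 6 h, with Osi17 between them higher at 44 h. The 11 genes higher at 44 h were kept in their call without any 1 of the 4 libraries. Of the 7 higher at 6 h, 6 were kept without either 44 h library or without 6 h replicate 2, and all 7 without 6 h replicate 1.

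**Figure D4:**
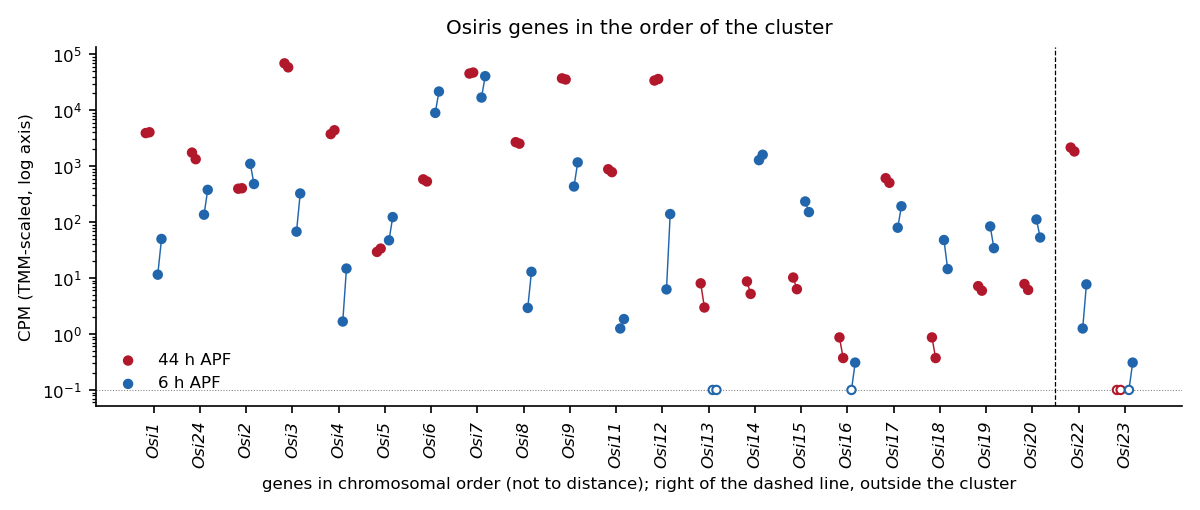
CPM on a log axis for the 22 Osiris genes in chromosomal order, with both libraries of 44 h (red) left of both libraries of 6 h (blue), and open points on the dotted line for counts of 0. Red lies above blue for most genes from Osi1 to Osi13, with Osi2, Osi5 and Osi6 the other way, and blue lies above red for Osi14, Osi15, Osi18, Osi19 and Osi20.

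The ZP proteins were mostly higher at 44 h. Of 13 tested genes, 9 were higher at 44 h (69.2%, beside 17.0% of all genes) and 3 higher at 6 h (23.1%, beside 14.7%), and the list's median log2 fold change was 2.20. Miniature (m), which shapes the apical membrane of wing cells, had 6255 and 5038 CPM at 44 h, against 63.1 and 209.8 CPM at 6 h (log2 fold change 5.38, adjusted p = 6.88e-06). NompA, which links sensory dendrites to the cuticle, had 64.1 and 67.7 CPM at 44 h, against 1.04 and 1.23 CPM at 6 h (log2 fold change 5.84), and the neuron markers moved the same way, whose part in it was not tested. Among the genes higher at 6 h was dumpy (dpy), a giant ZP protein that anchors the pupal wing to the cuticle around it, with 299.2 and 324.5 CPM at 44 h, against 2047 and 1233 CPM at 6 h (log2 fold change -2.40, adjusted p = 2.05e-04). In the control wings of 44 h, dpy had 9007 and 8037 CPM, above both 6 h libraries, so its direction did not hold against them. Papillote (pot) and quasimodo (qsm) were the other genes higher at 6 h. Both lost their call without 6 h replicate 1, and pot also without 44 h replicate 1. In the control wings of 44 h, pot had 942.7 and 919.5 CPM, not below its 814.4 and 383.0 CPM at 6 h, so its lower 44 h level was not seen there.

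Several chitin deacetylase genes were higher at 6 h, and the chitin synthase gene was not called. The synthase gene krotzkopf verkehrt (kkv) had 826.9 and 864.3 CPM at 44 h and 940.3 and 538.9 CPM at 6 h, with a log2 fold change of 0.19 (adjusted p = 0.629). The deacetylase genes serpentine (serp), vermiform (verm) and Cda4 were higher at 6 h. Verm had 633.7 and 638.5 CPM at 44 h, against 11870 and 3469 CPM at 6 h (log2 fold change -3.59, adjusted p = 1.09e-04), and serp had 278.3 and 323.8 CPM at 44 h, against 8308 and 2220 CPM at 6 h (log2 fold change -4.13). Without 6 h replicate 1 the log2 fold changes were -2.45 for verm and -2.88 for serp. In the control wings of 44 h both were well above the wild-type 44 h level. Verm had 3991 and 3125 CPM there, and serp had 3579 and 2651 CPM. The serp levels lay inside the range of the 6 h libraries, and the verm levels lay near the 3469 CPM of 6 h replicate 2. Control levels come from a separate scaling, so such close values cannot be ordered. Cda5 had 1122 and 1072 CPM at 44 h and 1229 and 284.1 CPM at 6 h and was not called, but without 6 h replicate 1 it passed the test as higher at 44 h (log2 fold change 1.95). Of the 12 tested genes of chitin synthesis and assembly, 5 were higher at 6 h (41.7%, beside 14.7% of all genes). Only knickkopf (knk), which organises chitin, was higher at 44 h, with 970.5 and 853.9 CPM at 44 h, against 242.1 and 250.5 CPM at 6 h. Of its exon bases, 64.0% lie opposite another gene. In the control wings of 44 h, knk had 296.7 and 265.8 CPM, close to its 6 h level. Of 13 tested chitinases and related growth factors, 5 were higher at 44 h (38.5%, beside 17.0% of all genes), led by Cht7 (4451 and 3952 CPM at 44 h, 410.3 and 291.5 CPM at 6 h), and 1, Cht5, was higher at 6 h (73.0 and 69.3 CPM at 44 h, 265.7 and 797.4 CPM at 6 h).

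Of 19 tested genes of pigmentation and tanning, 8 were higher at 44 h (42.1%, beside 17.0% of all genes) and 3 higher at 6 h (15.8%, near the 14.7% of all genes). Pale (ple), the tyrosine hydroxylase that opens catecholamine synthesis, had 3.04 and 4.46 CPM at 44 h, against 134.8 and 300.4 CPM at 6 h (log2 fold change -5.83, adjusted p = 7.64e-06). Punch (Pu), the enzyme that starts synthesis of the cofactor of Pale, went the other way, with 15.9 and 15.2 CPM at 44 h, against 0.63 and 0.31 CPM at 6 h (log2 fold change 4.90). Ddc, the next enzyme of the pathway, and ebony (e), which joins dopamine to beta-alanine, lay at or below 4.18 CPM in all 4 libraries and were not called. Members of the Yellow family divided between the stages. Yellow-d2 had 138.6 and 139.8 CPM at 44 h, against 5.22 and 8.94 CPM at 6 h, while yellow-e2 had 0.87 and 1.67 CPM at 44 h, against 43.2 and 19.1 CPM at 6 h.

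Genes of the ecdysone response also differed between the stages. Of 26 tested genes, 10 were higher at 44 h (38.5%, beside 17.0% of all genes) and 4 higher at 6 h (15.4%, near the 14.7% of all genes). The early response genes Eip74EF and Eip75B, an ETS factor and a nuclear receptor, were higher at 44 h. Eip74EF had 1430 and 1395 CPM at 44 h, against 139.6 and 82.3 CPM at 6 h (log2 fold change 3.67, adjusted p = 1.74e-06), and Eip75B had 1172 and 1202 CPM at 44 h, against 55.6 and 193.2 CPM at 6 h (log2 fold change 3.26). The bZIP gene vrille (vri) had 482.3 and 484.2 CPM at 44 h, against 5.64 and 9.24 CPM at 6 h (log2 fold change 6.05), and it had 31.9 and 319.6 CPM in the control wings of 44 h. The receptor gene EcR had 526.4 and 438.8 CPM at 44 h, against 95.1 and 113.4 CPM at 6 h (log2 fold change 2.21). Broad (br), the zinc-finger gene that specifies the pupal stage, was the reverse, with 23.9 and 32.2 CPM at 44 h, against 1227 and 1015 CPM at 6 h (log2 fold change -5.32, adjusted p = 1.95e-06), and its highest mean was at L3. Blimp-1, a repressor of ftz-f1, had 14.1 and 12.3 CPM at 44 h, against 1.25 and 6.47 CPM at 6 h (log2 fold change 1.89, adjusted p = 0.0106). This call was lost without 6 h replicate 1 and without 44 h replicate 1. Both stages were far below the 1174 and 1584 CPM that Blimp-1 had at 36 h. Hr3 and crol were not called, with adjusted p of 0.625 for Hr3 and 0.252 for crol, and 82.7% of Hr3 exon bases are shared with another gene on the same strand.

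The adult wing also grows a hair from each cell, and 9 of 16 genes of hairs and apical actin were higher at 44 h (56.2%, beside 17.0% of all genes). The list's median log2 fold change was 1.34, beside -0.01 over all genes tested. Shavenoid (sha), which is needed for hair growth, had 1267 and 1020 CPM at 44 h, against 3.34 and 9.55 CPM at 6 h (log2 fold change 7.53, adjusted p = 1.23e-07). The filamin gene cheerio (cher) had 1101 and 1091 CPM at 44 h, against 6.27 and 7.40 CPM at 6 h. Multiple wing hairs (mwh), which limits each cell to a single hair, had 362.2 and 389.0 CPM at 44 h, against 2.72 and 5.55 CPM at 6 h. The gene ovo was the only member higher at 6 h, and it lost its call without 6 h replicate 1.

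**Figure D5:**
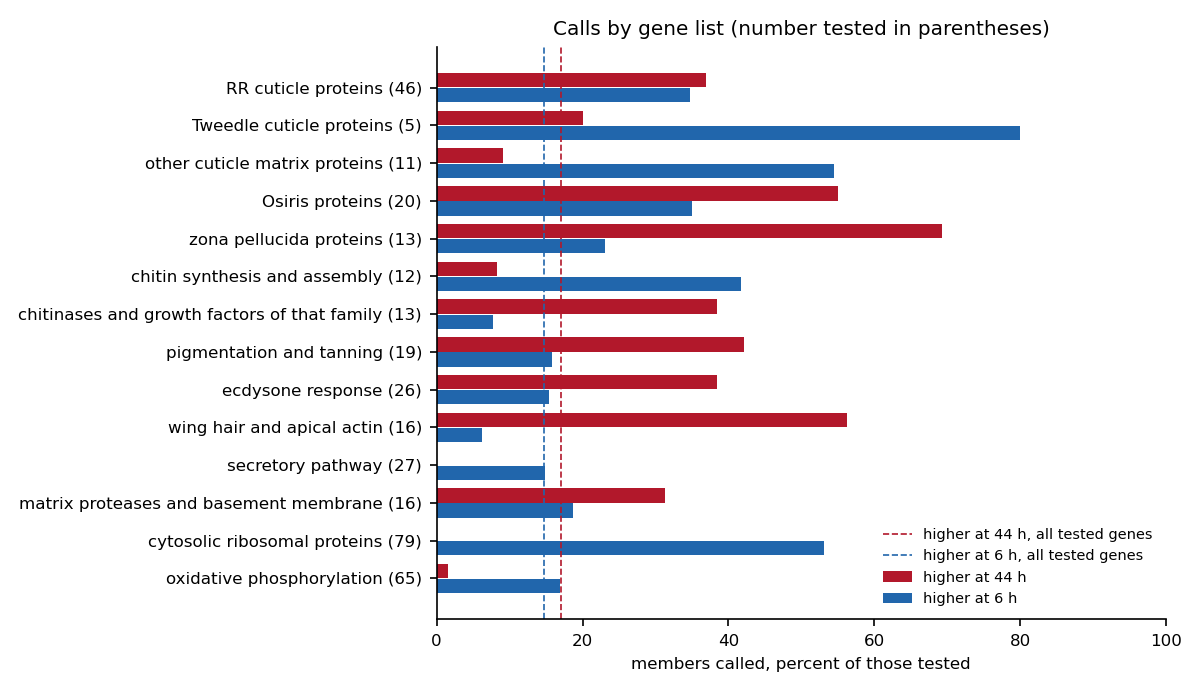
Percent of the tested members of 14 gene lists (the marker lists and the study's own lists are not drawn) called higher at 44 h (red, upper bar) and higher at 6 h (blue, lower bar), with dashed lines at 17.0% and 14.7%, the shares over all 8669 genes tested. Of the lists drawn, ZP, Osiris and hair genes stand highest among the red bars, and Tweedle, other matrix and ribosomal protein genes among the blue ones.

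Away from the cuticle, many cell cycle genes were lower at 44 h. Of 285 tested genes in the study's own cell cycle list, 153 were higher at 6 h (53.7%, beside 14.7% of all genes), 3 higher at 44 h and 129 not called, and the median log2 fold change was -1.24. Over the 153 the median was -2.41, and it was -2.03 without 6 h replicate 1. This list comes from the study itself and is no independent evidence of its direction. CycE, which drives entry into S phase, had 8.47 and 10.2 CPM at 44 h, against 37.4 and 29.0 CPM at 6 h (log2 fold change -1.83, adjusted p = 4.59e-05). String (stg), the Cdc25 phosphatase of mitotic entry, had 30.9 and 27.1 CPM at 44 h, against 76.5 and 74.0 CPM at 6 h (log2 fold change -1.38). E2f1 had 151.0 and 164.7 CPM at 44 h, against 323.8 and 445.5 CPM at 6 h (log2 fold change -1.28). In the study's own cuticle list, which is no independent evidence either, 67 of 136 tested genes were higher at 44 h (49.3%, beside 17.0% of all genes) and 39 higher at 6 h (28.7%, beside 14.7%). Over the 39 the median log2 fold change was -3.99, and it was -2.22 without 6 h replicate 1. Cytosolic ribosomal proteins took 6.32% and 6.81% of all counts at 44 h, against 13.3% and 18.0% at 6 h, and 42 of 79 were higher at 6 h (53.2%, beside 14.7% of all genes). Their median log2 fold change of -1.04 lies close to the threshold. That count fell to 10 without 6 h replicate 2 and to 23 without 44 h replicate 1. Of 65 tested genes of oxidative phosphorylation, 11 were higher at 6 h (16.9%, beside 14.7% of all genes) and 1 at 44 h, with a median of -0.50, and the 11 became 5 without 6 h replicate 2, 7 without 44 h replicate 1 and 18 without 44 h replicate 2. In the secretory pathway 4 of 27 genes were higher at 6 h (14.8%, near the 14.7% of all genes). Of these 4, 1 kept its call without 6 h replicate 2 and 2 without 44 h replicate 2, and the count was 9 with library totals only.

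The genes with the largest differences were often outside the cuticle lists and carry no described role here. CG14627 had 1475 and 1380 CPM at 44 h, against 0.42 and 0.92 CPM at 6 h (log2 fold change 11.10, adjusted p = 2.94e-06), and at most 7.07 CPM in any library from L3 to 36 h. CG12017 was among the 5 most counted genes at 44 h, with 53860 and 48900 CPM at 44 h, against 138.9 and 385.5 CPM at 6 h. FBgn0032359, which the annotation used here does not place, had 996.1 and 911.9 CPM at 44 h, against 0 and 1.85 CPM at 6 h. CG3285 had no count at 6 h and 59.8 and 59.5 CPM at 44 h, at least 76.9-fold higher. The muscle actin Act88F had the largest fitted difference, with 30.6 and 325.5 CPM at 44 h and no count at 6 h, and lay at 2.63 and 6.35 CPM in the control wings of 44 h. Myosin heavy chain (Mhc) had 313 and 1589 counts at 44 h, against 1 and 2 counts at 6 h, a ratio of 510.1 with a counting interval of 174.3 to 2476. The summed muscle markers given above moved with these genes, and their part was not tested. These muscle genes differed several fold between the 44 h libraries, and Act88F, Mhc and Mlc1 were not called in the fit with library weights.

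Among the genes higher at 6 h, Lip1, a lipase gene, had 2 and 0 counts at 44 h, against 2110 and 1736 counts at 6 h, a ratio of 2390 with a counting interval of 661.2 to 19740. CG5756 had closely matching libraries, with 3.69 and 4.09 CPM at 44 h, against 694.2 and 707.7 CPM at 6 h (log2 fold change -7.48, adjusted p = 3.32e-09, the smallest over all genes). CG12164 was among the 5 most counted genes of the 6 h wing, with 474.3 and 221.2 CPM at 44 h, against 25240 and 6695 CPM at 6 h (log2 fold change -5.52, and -4.27 without 6 h replicate 1). CG9083 had 18.0 and 5.39 CPM at 44 h, against 6036 and 1216 CPM at 6 h (log2 fold change -8.29, and -6.72 without 6 h replicate 1), although 96.8% of its exon bases lie opposite another gene. The widest gap between the 6 h libraries among abundant genes was in CG13041, with 4.56 and 1.67 CPM at 44 h, against 313.2 and 0.31 CPM at 6 h. Its log2 fold change was -5.69 (adjusted p = 0.0105) and turned to 3.22 without 6 h replicate 1. CG31871 was alike, with 1.74 and 1.67 CPM at 44 h, against 352.0 and 4.31 CPM at 6 h, and lost its call without that library. CG13731 had 4.997 and 1.859 CPM at 44 h, against 1728 and 40.7 CPM at 6 h, and kept its call without that library, with a log2 fold change of -3.59 in place of -8.03.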

How the data were processed

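RNA from female wings was made into stranded mRNA libraries. According to the methods and the submitters' notes, the authors aligned reads to dm6 with STAR and counted them per gene with HTSeq. The values the authors deposited are raw counts, 1 library per file, neither normalized nor pooled. Reads that aligned to several places were not counted (34.9% to 50.0% of alignment records at 44 h and 42.6% to 49.6% at 6 h), so near-identical copies lose reads. Tool versions, the annotation and the strand setting are not given in the sources used here, so 7 named genes with at least 10% of exon bases shared on the same strand, and 10 with that share opposite another gene, are uncertain to that extent.

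Groups came from the GEO titles. The 12 wild-type libraries were fitted with edgeR 4.0.16 (R 4.3.3): filterByExpr (minimum count 10, minimum total 15), TMM, 1 coefficient per stage, quasi-likelihood F-test, Benjamini-Hochberg. A call needed adjusted p below 0.05 and log2 of the fold past 1 or -1. Levels per gene were not compared per length, so orders of abundance are by counts. The 2 control libraries of 44 h were scaled together with the 12 for levels only, a step added after the data were seen. Control levels printed beside wild-type levels thus come from another scaling than those levels. Intervals of ratios with few counts are 95% exact Clopper-Pearson intervals and cover counting error only. Gene lists were described by counts and medians, with no list test.

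Members and lists were chosen with earlier results of these data known. Named genes were at most 12 per direction with the largest log2 fold change (called, 50 counts or more in both libraries of the stage where they were higher, no overlap), at most 4 per direction in each list under the same conditions, a fixed set of cuticle, hormone and cell cycle genes, the 6 genes with the widest gap between 6 h libraries (mean of at least 100 CPM), and the 5 most counted genes per stage; other list members are named to account for their list, after their values were seen. Alternatives were DESeq2 1.42.0, RLE scaling, library totals only, every gene with 1 count, the replicate block, the 4 libraries alone, limma 3.58.1 voom with library weights, a test against a fold threshold, and each library left out. Protein sequences were not used here, nor were the 34 FAIRE samples and the 10 other RNA libraries.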

Additional observations from a re-analysis of the deposited data

How the results depend on the processing

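Calls stayed within 1.5 times the 2745 of the report, with 2351 (the 4 libraries alone) to 2999 (every gene with 1 count), except for a test against a fold threshold, which called 1659 genes, 962 higher at 44 h and 697 higher at 6 h. Leaving out 1 library gave 2292 to 2889 calls, 1337 to 1605 higher at 44 h and 955 to 1284 higher at 6 h, where the lone library of a stage is assumed to vary like the other stages. RR genes higher at 6 h numbered 32 with every gene with 1 count tested and 16 to 33 with 1 library left out. The Tweedle gene higher at 44 h was lost (0 calls) with DESeq2, voom and the fold threshold, and the count was 0 to 1 with 1 library left out. Cpr47Ec ran from -4.23 to 1.07 and CG13041 from -6.65 to 3.22 in log2 fold change with 1 library left out, and both turned positive without 6 h replicate 1. Of 1703 values of named genes under an alternative, 76 lost their call, 1 gained it and 2 called values reversed. The other 1624 stayed on their side of the threshold, 9 of them values called in neither fit that changed sign. A fit with a replicate block called 2713 genes, 1461 higher at 44 h and 1252 higher at 6 h. Same-numbered deviations at 6 h and 44 h correlated at r = -0.0016 across genes. Over all pairs of stages, r ran from -0.2082 (L3 with 18 h) to 0.2445 (6 h with 24 h). These values cannot show whether same-numbered samples were prepared together, since a shared preparation need not move the same genes. Depth limits the genes at few counts, and the cause of the changes under the alternatives was not tested.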
